A study of Mus musculus with 12 samples.

Results

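Livers of mice that carried a c-Myc transgene were compared with livers of mice that did not, in 12 RNA sequencing libraries from untreated adult mice. The 6 carriers were 3 mice of genotype AEG1_MYC (Alb/AEG-1/c-Myc) and 3 of genotype MYC (Alb/c-Myc), and the 6 non-carriers were 3 mice of genotype AEG1 (Alb/AEG-1) and 3 wild-type mice (WT). All 12 libraries of the series entered the comparison, with AEG1 status as a covariate and no interaction term, so that each gene has 1 MYC difference over both backgrounds. The Alb name refers to the albumin promoter, which is active in hepatocytes, and which cells expressed either transgene was not measured in this bulk tissue. The other transgene, AEG-1, codes for the protein of the mouse gene Mtdh. All mice came from crosses of heterozygous single transgenics, and the labels give neither sex, nor age in weeks, nor litter, nor batch. Values are CPM, counts scaled to TMM-adjusted library totals, or log2 fold changes of carriers over non-carriers with their standard error. Calls were made at 0.05 on p-values of edgeR's quasi-likelihood F test, adjusted over 13511 tested genes by Benjamini-Hochberg, and rose, fell or changed is said of called genes alone.

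MYC is a transcription factor that pairs with MAX and binds the DNA letters CACGTG, the E-box, among related sites. It is best known for raising the genes of ribosome production, translation, nucleotide synthesis and cell division, and its overexpression in hepatocytes gives liver tumours in mice. Related partners of MAX, the MXD proteins and MNT, bind the same sites and lower transcription there.

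Libraries held 28373138 to 36177913 reads in genes in carriers and 21931197 to 40552316 in non-carriers. TMM scaling factors ran over 0.993 to 1.19 in carriers and 0.914 to 0.988 in non-carriers and did not overlap, so scaling by library totals alone moved the median log2 fold change of all genes to 0.13, against 0.00 with TMM. That shift is nearly the same for every gene. Relative to it the medians of the 53 gene lists kept their sign by construction, which is no test of the lists. AEG1_MYC replicates 1 and 2 stood apart from the other libraries, with mean correlations of log2 CPM with the other libraries of 0.956 and 0.922, against 0.968 to 0.972 for the remaining 10. On the third principal component AEG1_MYC replicate 3, MYC replicate 3 and WT replicate 3 lay together at -28.7, -26.0 and -31.2, against -1.80 to 21.1 in the other 9. All libraries carried the hepatocyte transcripts Alb, at 24173 to 92828 CPM, and Ttr, at 2371 to 5445 CPM. Serpina1a, a hepatocyte protease inhibitor of a family of close copies, was at 20.4 CPM in AEG1_MYC replicate 2, against 321 to 572 CPM in the other 11. The tissue is bulk, so fewer cells of a type and less RNA per cell cannot be told apart.

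Myc itself separated the groups without overlap. Its values were 73.1, 165 and 58.4 CPM in AEG1_MYC livers and 23.4, 30.5 and 53.7 CPM in MYC livers, against 3.93, 3.54 and 4.596 CPM in AEG1 livers and 4.73, 2.79 and 2.26 CPM in WT livers. The lowest carrier stood above the highest non-carrier, and AEG1_MYC replicate 2 was the highest library. The mean was 67.4 ± 51.4 CPM in carriers and 3.64 ± 0.9801 CPM in non-carriers (SD, n = 6 each), a log2 fold change of 4.04 ± 0.38 (adjusted p = 0.00382). Myc was called under all 24 alternatives of processing and library choice. The labels do not give the species of the transgenes, so the share of Myc reads that came from the transgene was not determined. Mtdh was 97.4 ± 8.27 CPM in carriers and 98.8 ± 3.06 CPM in non-carriers (SD, n = 6 each), with a log2 fold change of -0.02 ± 0.07 (adjusted p = 0.936). By genotype its mean was 97.7 ± 12.9 CPM in AEG1_MYC livers and 97.1 ± 1.94 CPM in MYC livers, and 97.4 ± 4.00 CPM in AEG1 livers and 100.3 ± 1.09 CPM in WT livers (SD, n = 3 each). It was therefore not higher in the libraries labelled with the AEG-1 transgene, and the AEG1 status used as covariate rests on the labels alone. Reads of an AEG-1 transgene of another species may be counted as Mtdh only in part, so expression of that transgene was not determined.

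Across all genes few passed the test at this number of mice. In total 8 of 13511 genes were called, 0.0592% of those tested. Of these, 7 rose (0.0518%) and 1 fell (0.00740%). At an unadjusted p under 0.05, 1291 genes (9.56%) passed, 732 higher (5.42%) and 559 lower (4.14%). In 93 genes (0.688%) all 6 carriers lay above all 6 non-carriers, and in 54 genes (0.400%) all lay below. The number called turned on single libraries. It was 1 without AEG1 replicate 2, 4 without AEG1 replicate 1, 18 without AEG1_MYC replicate 1 and 15 without AEG1_MYC replicate 2. It was 3 without any 1 of AEG1 replicate 3, MYC replicate 2, MYC replicate 3, AEG1_MYC replicate 3 or the WT replicates, and 10 without MYC replicate 1. Scaling by library totals alone gave 3 rises and 0 falls. DESeq2 called 197 genes on the same design, 150 higher and 47 lower, with the 8 among them.

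**Figure D1:**
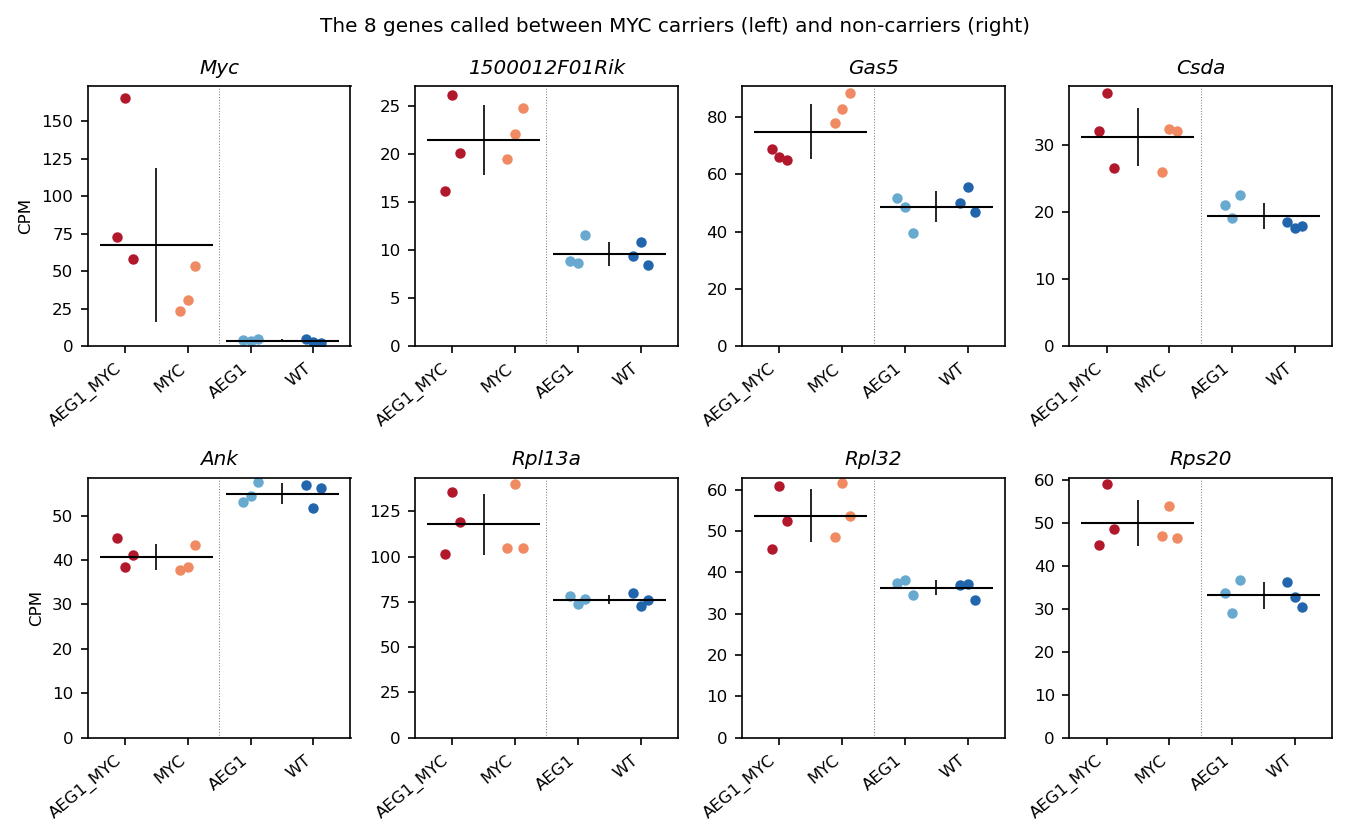
CPM of the 8 called genes in each library, by genotype, with carriers left of the dotted line and non-carriers right of it. Points are mice, horizontal lines are means over 6 carriers or 6 non-carriers and vertical lines span 1 SD each way; in all 8 panels the carriers and non-carriers do not overlap, with Ank the only gene lower in carriers.

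Among the genes that rose, 2 were long noncoding RNAs that host small nucleolar RNAs in their introns, the guides of ribosomal RNA modification. Transcript 1500012F01Rik, named Zfas1 in RefSeq, was 16.2, 26.2 and 20.1 CPM in AEG1_MYC livers and 19.5, 22.1 and 24.8 CPM in MYC livers, against 8.84, 8.68 and 11.6 CPM in AEG1 livers and 9.36, 10.8 and 8.498 CPM in WT livers. Every carrier held more than every non-carrier, and the genotypes within each side overlapped. Its log2 fold change was 1.16 ± 0.13 (adjusted p = 0.0107), and it was called in 11 of 12 fits that left out a library. Gas5, the other host, was 68.98, 65.9 and 65.1 CPM in AEG1_MYC livers and 77.8, 82.97 and 88.4 CPM in MYC livers, against 51.8, 48.7 and 39.4 CPM in AEG1 livers and 49.99, 55.5 and 46.8 CPM in WT livers. Its log2 fold change was 0.61 ± 0.08 (adjusted p = 0.0353), and it was called in 4 of the 12 fits that left out a library. Whether the counting used strand is not given in the sources used here. Reads of overlapping genes on the opposite strand therefore cannot be told apart from reads of these RNAs.

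Ribosomal proteins made up 3 of the 7 rises. Rpl13a, a protein of the large subunit whose gene also hosts small nucleolar RNAs, was 101, 136 and 119 CPM in AEG1_MYC livers and 105, 140.3 and 105 CPM in MYC livers, against 78.1, 73.9 and 76.8 CPM in AEG1 livers and 79.9, 72.8 and 76.3 CPM in WT livers. The non-carriers lay within a narrow band and all carriers above it, for a log2 fold change of 0.63 ± 0.09 (adjusted p = 0.044). Rpl32, also of the large subunit, averaged 53.7 ± 6.46 CPM in carriers and 36.3 ± 1.84 CPM in non-carriers (SD, n = 6 each; log2 fold change 0.57 ± 0.08, adjusted p = 0.044). Rps20 of the small subunit averaged 50.1 ± 5.44 CPM in carriers and 33.2 ± 3.06 CPM in non-carriers (SD, n = 6 each; log2 fold change 0.59 ± 0.09, adjusted p = 0.044). Without 1 library, Rpl13a and Rpl32 were called in 3 of 12 fits each and Rps20 in 2.

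The last rise was Csda, now named Ybx3, a cold-shock domain protein that binds DNA and RNA. It was 32.2, 37.9 and 26.6 CPM in AEG1_MYC livers and 26.1, 32.4 and 32.2 CPM in MYC livers, against 21.2, 19.1 and 22.6 CPM in AEG1 livers and 18.5, 17.6 and 17.9 CPM in WT livers, with a log2 fold change of 0.68 ± 0.10 (adjusted p = 0.044) and a call in 4 of 12 fits without a library. The gene that fell was Ank, the transmembrane protein of progressive ankylosis, which moves pyrophosphate and ATP out of cells. It was 44.9, 38.5 and 41.2 CPM in AEG1_MYC livers and 37.8, 38.5 and 43.5 CPM in MYC livers, against 53.03, 54.4 and 57.6 CPM in AEG1 livers and 56.8, 51.8 and 56.2 CPM in WT livers. All 6 carriers lay below the lowest non-carrier, for a log2 fold change of -0.43 ± 0.06 (adjusted p = 0.044), with a call in 2 of 12 fits without a library. By background, Csda and Ank stood at 0.62 ± 0.14 and -0.41 ± 0.09 in AEG1_MYC over AEG1, and at 0.75 ± 0.14 and -0.46 ± 0.09 in MYC over WT.

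The E-box is the site by which MYC is known, so the promoters of the separated genes were read for it. The 250 bases before the annotated start are shown for the 3 genes higher in every carrier that belong to the ribosomal protein, translation factor or nucleotide synthesis lists, have 1 annotated start and hold CACGTG there, and for the cholesterol synthesis gene Sc5d, lower in every carrier. Sequences are from RefSeq on GRCm38.p6, given on the gene's own strand, and capitals mark the E-box.
Rpl13a (chr7:45128746-45128995, minus strand): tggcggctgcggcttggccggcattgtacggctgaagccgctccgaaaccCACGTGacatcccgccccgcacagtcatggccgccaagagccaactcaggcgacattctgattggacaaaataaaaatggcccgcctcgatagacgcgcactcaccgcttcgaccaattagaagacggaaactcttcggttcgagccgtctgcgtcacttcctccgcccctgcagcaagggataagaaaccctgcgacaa
Eef2 (chr10:81176381-81176630, plus strand): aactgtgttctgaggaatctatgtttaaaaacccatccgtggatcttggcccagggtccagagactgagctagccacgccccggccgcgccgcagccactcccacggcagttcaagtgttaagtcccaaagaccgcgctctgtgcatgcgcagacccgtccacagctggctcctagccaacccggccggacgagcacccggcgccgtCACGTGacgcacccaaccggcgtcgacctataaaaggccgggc
Impdh2 (chr9:108560186-108560435, plus strand): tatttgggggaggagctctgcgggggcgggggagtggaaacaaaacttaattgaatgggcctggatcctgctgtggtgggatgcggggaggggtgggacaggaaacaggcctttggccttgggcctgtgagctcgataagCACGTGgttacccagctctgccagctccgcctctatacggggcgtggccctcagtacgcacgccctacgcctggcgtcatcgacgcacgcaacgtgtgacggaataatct
Sc5d (chr9:42264301-42264550, minus strand): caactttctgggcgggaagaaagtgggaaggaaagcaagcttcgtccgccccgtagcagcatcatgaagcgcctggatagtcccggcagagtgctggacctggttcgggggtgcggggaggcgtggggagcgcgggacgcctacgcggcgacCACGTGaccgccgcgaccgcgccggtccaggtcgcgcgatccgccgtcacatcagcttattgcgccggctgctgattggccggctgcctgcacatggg
Counted from the first base of the E-box to the annotated start, the distance was 200 bases in Rpl13a, 43 in Eef2, 110 in Impdh2 and 98 in Sc5d.

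CACGTG reads the same on both strands and was searched in windows of 250 bases before to 50 after each start. It was in 7.15% of all 32851 windows. By gene, it was in the windows of 8.09% of all 27025 genes and of 11.6% of the 10649 tested genes with a window. Of the 93 genes with all carriers above, 68 had a window and 14.7% of these held it. Of the 54 genes with all carriers below, 46 had a window and 15.2% held it. Shares by gene list were 10.9% of 55 ribosomal protein genes, 22.6% of 53 ribosome biogenesis genes and 27.8% of 18 cholesterol genes. A match is a description of the letters and no evidence of binding. Myc, Rpl32 and Rps20 are not in the promoter table used here.

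Cytosolic ribosomal proteins stood higher in carriers as a whole list. Of 78 proteins, 74 were tested, 70 were higher and 4 lower, and the median log2 fold change was 0.49, against 50.6% of all tested genes higher and a median of 0.00. The 3 named above were called. In 31 of the 74 all carriers lay above all non-carriers, against 0.688% of all tested genes, and in 0 all lay below, against 0.400%. They are 33.3% of the 93 genes so separated.

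Summed over every member in the table, tested or not, as for all sums given here, the level of the list was 2704, 3702 and 3044 CPM in AEG1_MYC livers and 2675, 3482 and 3025 CPM in MYC livers, against 2191, 2213 and 2305 CPM in AEG1 livers and 2349, 2254 and 2034 CPM in WT livers. No non-carrier reached the lowest carrier, and within carriers each genotype spread over nearly the same range. The median log2 fold change of the members was 0.47 in AEG1_MYC over AEG1 and 0.47 in MYC over WT, comparisons that share no library. It was 0.44 without AEG1_MYC replicates 1 and 2.

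Single ribosomal proteins varied around that median. Rplp0, the stalk protein of the large subunit, was 135 to 284 CPM in carriers, against 93.9 to 111 CPM in non-carriers (log2 fold change 0.81 ± 0.16, adjusted p = 0.0985). Rps19 of the small subunit was 11.4 to 14.7 CPM in carriers, against 5.43 to 9.82 CPM in non-carriers (0.75 ± 0.14, adjusted p = 0.0827), and Rpl12, the largest difference, was 2.21 to 5.05 CPM in carriers, against 1.11 to 1.76 CPM in non-carriers (1.098 ± 0.23, adjusted p = 0.138). The 4 lower members were Rps2 at -0.62 ± 0.84, Rpl30 at -0.49 ± 0.24, Rpl23a at -0.37 ± 0.17 and Rpl10 at -0.08 ± 0.18, each with overlapping groups. Ribosomal protein genes have many near-identical pseudogenes and the tables hold uniquely placed reads, so their counts are uncertain and understate the transcripts. Alignments to several places made up 46.5% to 55.8% of the tabulated alignments in carriers and 46.6% to 58.0% in non-carriers.

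**Figure D2:**
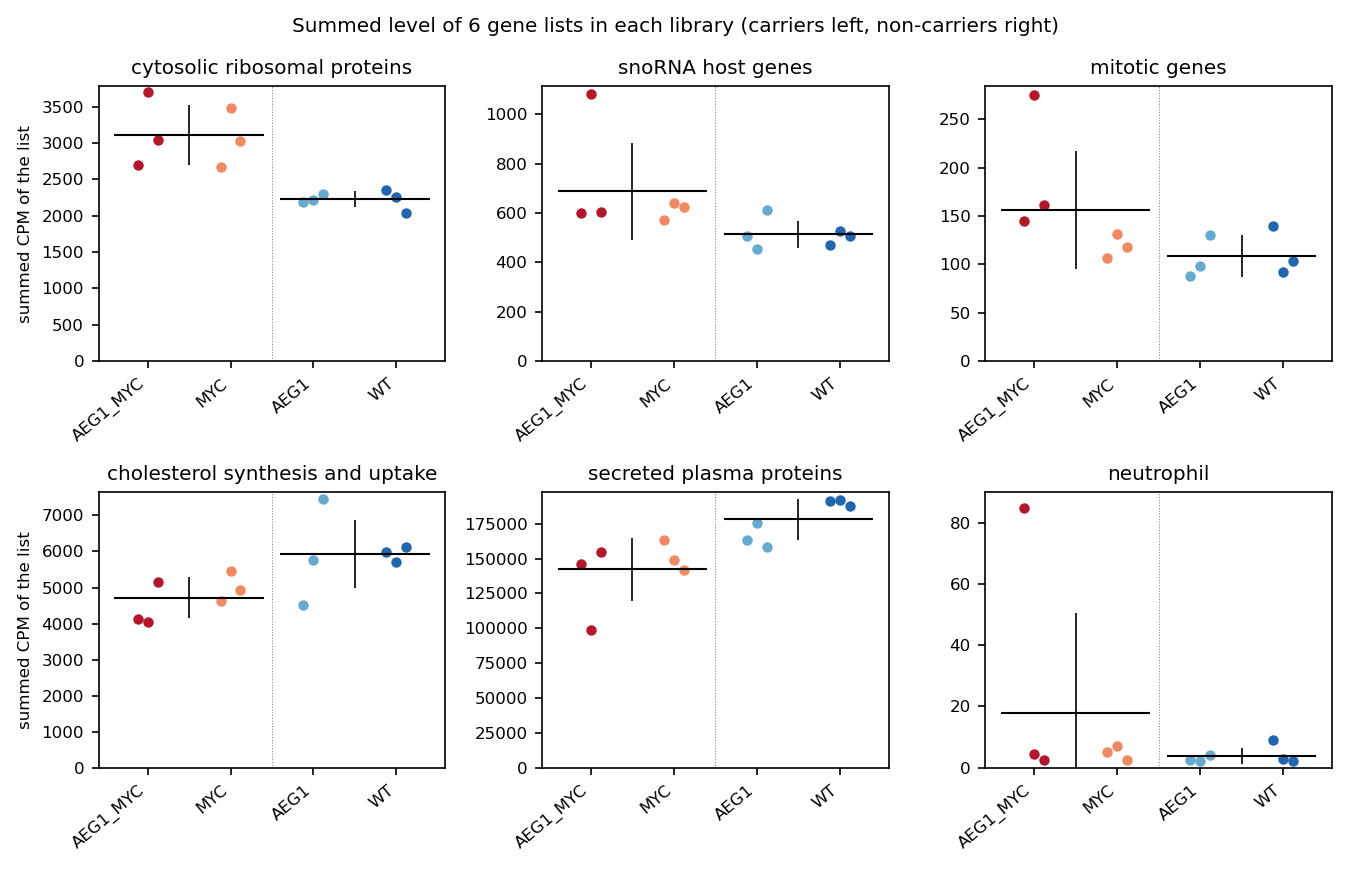
Summed CPM of 6 gene lists in each library by genotype, with carriers left of the dotted line and non-carriers right of it; points are mice, horizontal lines means and vertical lines 1 SD each way. The ribosomal protein sums of carriers (2675 to 3702 CPM) and non-carriers (2034 to 2349 CPM) do not overlap, while the other 5 lists overlap and the neutrophil sum stands at 85.0 CPM in AEG1_MYC replicate 1.

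The wider set of snoRNA host genes stood higher as well. All 17 members of the list were tested, and all were higher in carriers, with a median of 0.40, 3 called (0.0518% of all tested genes were called higher), and 5 with all carriers above (0.688% of all). Snhg4, a noncoding host gene, was 2.15 to 7.18 CPM in carriers, against 0.726 to 1.59 CPM in non-carriers (1.63 ± 0.31, adjusted p = 0.0827). Taf1d, a host that also encodes a subunit of the RNA polymerase I factor SL1, was 7.22 to 16.9 CPM in carriers, against 4.997 to 8.11 CPM in non-carriers and overlapped. The list holds Rpl13a, which is also in the ribosomal protein list.

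Translation factors followed the ribosomal proteins in part. All 43 members were tested, of which 32 were higher and 11 lower in carriers, with a median of 0.11 and none called; 12 passed an unadjusted p under 0.05, all of them higher (5.42% of all genes). Eef1b2, the exchange factor subunit of elongation factor 1, was 160.1, 245 and 185 CPM in AEG1_MYC livers and 168, 209 and 178 CPM in MYC livers, against 112, 118 and 129 CPM in AEG1 livers and 122, 123 and 105 CPM in WT livers. Carriers lay above non-carriers throughout, and the log2 fold change of 0.69 ± 0.11 missed the threshold (adjusted p = 0.0524). Eef2, the translocation factor of elongation, was 1466 to 1942 CPM in carriers, against 1157 to 1362 CPM in non-carriers (0.37 ± 0.10, adjusted p = 0.254). Gnb2l1, now Rack1, a scaffold protein of the small ribosomal subunit, was 345 to 480.4 CPM in carriers, against 241 to 287 CPM in non-carriers (0.56 ± 0.09, adjusted p = 0.0692).

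Ribosome biogenesis and RNA polymerase I genes were higher by less. Of 61 in the list 60 were tested, of which 55 were higher and 5 lower in carriers, with a median of 0.20, 0 called and 13 at an unadjusted p under 0.05, all higher (5.42% of all genes). Nhp2, a protein of the pseudouridylation guide complexes, was 21.7 to 34.1 CPM in carriers, against 16.01 to 18.96 CPM in non-carriers (0.67 ± 0.12). Nle1, a factor of large-subunit maturation, was 4.57 to 9.497 CPM in carriers, against 2.81 to 4.36 CPM in non-carriers (0.96 ± 0.21), and nucleophosmin, Npm1, was 43.8 to 66.4 CPM in carriers, against 30.3 to 40.9 CPM in non-carriers (0.52 ± 0.12). These 3 were the members with all carriers above (0.688% of all genes were), at adjusted p values of 0.0827, 0.141 and 0.158. Without AEG1_MYC replicates 1 and 2 the list median was 0.09. Mitochondrial ribosomal proteins stood near the background, with 50 of 75 higher and a median of 0.03.

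Genes known to be raised by MYC in cultured cells were mostly higher, 28 of 34, with a median of 0.21, 0.07 without AEG1_MYC replicates 1 and 2. None was called, and 10 passed an unadjusted p under 0.05 (9.56% of all genes). Among them, nucleolin, Ncl, was 198 to 306 CPM in carriers, against 172 to 226 CPM in non-carriers (0.37 ± 0.11), and the mitochondrial chaperonin Hspd1 was 180.4 to 235 CPM in carriers, against 154 to 191 CPM in non-carriers (0.24 ± 0.09). Of the 19 genes known to be lowered by MYC in culture, 9 were higher and 10 lower.

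Nucleotide, serine and one-carbon synthesis had 28 of 37 members higher and a median of 0.15, 0.03 without AEG1_MYC replicates 1 and 2. Impdh2, which commits the purine pathway to guanine nucleotides, was 3.804, 4.54 and 3.56 CPM in AEG1_MYC livers and 2.87, 3.31 and 3.398 CPM in MYC livers, against 2.54, 2.52 and 2.51 CPM in AEG1 livers and 2.41, 2.49 and 2.26 CPM in WT livers. It was low in level but separated all carriers from all non-carriers, with a log2 fold change of 0.54 ± 0.12 (adjusted p = 0.168). Its isoenzyme Impdh1 was 3.07 to 5.56 CPM in carriers, against 2.31 to 3.66 CPM in non-carriers and overlapped. Outside the list, Dctd, the deaminase of deoxycytidylate, was 0.827, 2.64 and 0.449 CPM in AEG1_MYC livers and 0.414, 0.724 and 1.19 CPM in MYC livers, against 0.0836, 0 and 0.151 CPM in AEG1 livers and 0.0610, 0 and 0.0854 CPM in WT livers. It was close to 0 in every non-carrier, and its log2 fold change of 3.85 ± 0.64 was not called (adjusted p = 0.0692).

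Chaperonins had 16 of 18 members higher, with a median of 0.15. Cct4 and Cct5, subunits of the cytosolic chaperonin ring, were the 2 with all carriers above (0.688% of all genes were), at 111 to 139 CPM in carriers, against 98.6 to 110.1 CPM in non-carriers for Cct4 and 154 to 212 CPM in carriers, against 133 to 152 CPM in non-carriers for Cct5. The polyamine list had 9 of 11 higher, with spermine synthase, Sms, at 0.55 ± 0.18 and spermidine synthase, Srm, at 0.35 ± 0.21, both with overlapping groups. Its median of 0.14 was 0.37 in AEG1_MYC over AEG1 and -0.04 in MYC over WT, and 0.01 without AEG1_MYC replicates 1 and 2. Aminoacyl-tRNA synthetases stood at a median of 0.02, with 14 of 21 higher.

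MYC's own network, 24 tested genes, changed in Myc alone. Max, the obligate partner, was 23.2 to 48.6 CPM in carriers, against 19.9 to 27.3 CPM in non-carriers (0.33 ± 0.13, adjusted p = 0.478). The repressor partners Mnt and Mxd1 stood at 0.25 ± 0.12 and 0.28 ± 0.14 (adjusted p = 0.525 and 0.546), and the paralog Mycn at -0.59 ± 0.75, with WT replicate 1 at 9.21 CPM and the carriers at 1.05 to 3.54 CPM. The list median was 0.07.

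Mitotic genes stood highest in AEG1_MYC livers. Of 47 in the list 45 were tested, and 43 of these were higher in carriers, with a median of 1.02, 0 called, 19 higher at an unadjusted p under 0.05 (5.42% of all genes) and 1 with all carriers above (0.688% of all). That median was 1.598 in AEG1_MYC over AEG1 and 0.18 in MYC over WT, and it was 0.57 without AEG1_MYC replicates 1 and 2. The summed level was 145, 275 and 162 CPM in AEG1_MYC livers and 106, 132 and 118 CPM in MYC livers, against 87.9, 98.1 and 131 CPM in AEG1 livers and 139.9, 92.4 and 104 CPM in WT livers. All AEG1_MYC livers lay above the highest non-carrier, with replicate 2 far above the rest, and the MYC livers overlapped the non-carriers. Prc1, which bundles the microtubules of the spindle midzone, was the member with all carriers above, at 1.98 to 5.64 CPM in carriers, against 0.383 to 1.96 CPM in non-carriers (1.33 ± 0.35, adjusted p = 0.259). The kinase Aurkb was 0.656 to 2.76 CPM in carriers, against 0.139 to 0.753 CPM in non-carriers (1.51 ± 0.46).

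DNA replication genes had 31 of 42 members higher at a median of 0.07, or 0.02 without AEG1_MYC replicates 1 and 2, with Gins2, of the helicase complex, at 1.33 ± 0.33 and the replication-coupled methylation factor Uhrf1 at 1.48 ± 0.45. Cyclin E1, Ccne1, which drives entry into S phase, was 4.93, 1.098 and 5.52 CPM in AEG1_MYC livers and 3.56, 2.92 and 8.75 CPM in MYC livers, against 0.892, 0.388 and 1.38 CPM in AEG1 livers and 0.945, 1.45 and 0.939 CPM in WT livers. Its groups overlapped through AEG1_MYC replicate 2, the lowest carrier, and the log2 fold change was 2.13 ± 0.44 (adjusted p = 0.127). Ccnd1, cyclin D1, and the repressor E2f7 were lower, at -0.95 ± 0.36 and -1.07 ± 0.35, and E2f1 and the kinase inhibitor Cdkn2c higher, at 0.46 ± 0.16 and 1.39 ± 0.45. None of these was called (adjusted p = 0.45, 0.385, 0.424 and 0.375).

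Hrk and Tnfrsf10b, which act in cell death, stood higher at low levels, and neither was called in the pooled comparison. Hrk, a BH3-only protein that opposes BCL2 and is in none of the lists, was 2.91, 11.6 and 2.05 CPM in AEG1_MYC livers and 0.691, 1.92 and 2.08 CPM in MYC livers, against 0.307, 0.388 and 0.226 CPM in AEG1 livers and 0.305, 0.268 and 0.342 CPM in WT livers. All carriers lay above all non-carriers, with AEG1_MYC replicate 2 far above the rest, for a log2 fold change of 3.31 ± 0.56 (adjusted p = 0.0692). In AEG1_MYC over AEG1, Hrk rose (4.19 ± 0.71, adjusted p = 0.0452). Tnfrsf10b, a death receptor for TRAIL, was 0.483 to 2.08 CPM in carriers, against 0.2296 to 0.502 CPM in non-carriers (1.602 ± 0.30, adjusted p = 0.0854). Of the 34 p53 target and apoptosis genes, 23 were higher and 11 lower, at a median of 0.17, or 0.09 without AEG1_MYC replicates 1 and 2. None was called and in 0 all carriers lay above (0.688% of all genes). The stress sensor Sesn2 stood at 0.52 ± 0.15.

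Among lists with at least 10 tested genes, cholesterol synthesis had the lowest median after male-biased liver genes. Of 28 in the list 26 were tested, of which 24 were lower and 2 higher in carriers, with a median of -0.39. None was called, 12 passed an unadjusted p under 0.05, all lower (4.14% of all genes), and 1 had all carriers below (0.400% of all). The median was -0.43 in AEG1_MYC over AEG1, -0.35 in MYC over WT and -0.36 without AEG1_MYC replicates 1 and 2. With single libraries left out it ran over -0.456 to -0.236, the smallest size being without AEG1 replicate 3. Members with all carriers below numbered 5 without AEG1 replicate 1, 4 without MYC replicate 2 and 2 without MYC replicate 3 or AEG1_MYC replicate 3. With fewer libraries the groups of any gene separate more easily. These counts were not set against the share of all genes in the same fits. Sc5d, a desaturase of the last steps, was 392, 346 and 761 CPM in AEG1_MYC livers and 653, 721 and 617 CPM in MYC livers, against 809.8, 947 and 1294 CPM in AEG1 livers and 787, 888 and 1055 CPM in WT livers. Every carrier lay below every non-carrier, for a log2 fold change of -0.74 ± 0.21 (adjusted p = 0.301). Lss, which closes the sterol rings, was 57.6 to 87.9 CPM in carriers, against 65.9 to 139 CPM in non-carriers (-0.603 ± 0.17). Scap, which escorts the SREBP factors that drive the pathway, was 78.5 to 163 CPM in carriers, against 162 to 202 CPM in non-carriers (-0.53 ± 0.15), and Pmvk, of the mevalonate steps, stood at -0.504 ± 0.15. Their adjusted p values were 0.291, 0.294 and 0.311.

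Lipogenesis and triglyceride storage had 28 of 36 members lower, with a median of -0.28, none called, and 11 lower (4.14% of all genes) and 2 higher (5.42% of all) at an unadjusted p under 0.05. The median was -0.497 in AEG1_MYC over AEG1 and -0.18 in MYC over WT. It was -0.15 without AEG1_MYC replicate 2, -0.15 without AEG1 replicate 3 and -0.12 with 1 surrogate variable. Acss2, which makes acetyl-CoA from acetate, was 336, 138 and 290.4 CPM in AEG1_MYC livers and 352, 353 and 276 CPM in MYC livers, against 374, 395 and 849.6 CPM in AEG1 livers and 414, 357 and 538 CPM in WT livers. It was lower in every carrier than in every non-carrier, by a log2 fold change of -0.75 ± 0.27 (adjusted p = 0.432). The fatty acid elongase Elovl5 was 319.7 to 1338 CPM in carriers, against 1223 to 2201 CPM in non-carriers (-0.98 ± 0.27), and the lipid droplet protein Cideb stood at -0.27 ± 0.08. Mogat2, an acyltransferase of monoacylglycerol, was higher in AEG1_MYC, at 19.9, 11.01 and 1.83 CPM in AEG1_MYC livers, against 0.279, 0.631 and 0.804 CPM in AEG1 livers. In the other background it was 0.207, 0.446 and 0.421 CPM in MYC livers, against 0.0305, 0.306 and 0.299 CPM in WT livers.

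Products that hepatocytes secrete were lower by a small amount. Of 35 secreted plasma proteins, 27 were lower, at a median of -0.20, and of 24 coagulation genes, 22 were lower, at -0.17; 0 of either list were called. Without AEG1_MYC replicates 1 and 2 the medians were -0.09 and -0.16. Albumin itself was 39787, 24173 and 55932 CPM in AEG1_MYC livers and 69951, 57436 and 53101 CPM in MYC livers, against 64879, 72847 and 62901 CPM in AEG1 livers and 92828, 83458 and 85696 CPM in WT livers. The groups overlapped between MYC and AEG1, and the log2 fold change was -0.64 ± 0.19 (adjusted p = 0.325). The thyroid hormone carrier Ttr stood at -0.45 ± 0.16 and the hyaluronan-binding Itih2 at -0.35 ± 0.12. Antithrombin, Serpinc1, was 1513 to 2119 CPM in carriers, against 2276 to 2572 CPM in non-carriers, without overlap (-0.28 ± 0.10, adjusted p = 0.42).

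Enzymes of amino acid breakdown and the urea cycle had 34 of 47 members lower, at a median of -0.10. Gstz1, of tyrosine breakdown, was 698 to 866 CPM in carriers, against 874 to 1035 CPM in non-carriers (-0.26 ± 0.09), the 1 member with all carriers below (0.400% of all genes were). Cbs, of the path to cysteine, stood at -0.43 ± 0.15 and the betaine methyltransferase Bhmt2 at -0.41 ± 0.11. Cytochromes P450 had 39 of 57 members lower, at -0.18, and bile acid genes 21 of 31, at -0.17, with the bile salt export pump Abcb11 at -0.35 ± 0.15 and the uptake carrier Slc10a1 at -0.58 ± 0.27. With scaling by library totals, which shifts all genes, the median of the amino acid list was 0.01. With 1 surrogate variable it was 0.03.

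Among sulfotransferases, Sult2a7 was higher and Sult5a1 lower in carriers, and neither was called. Sult2a7, of the family that sulfates steroids and bile acids, was 27.4, 3.18 and 94.2 CPM in AEG1_MYC livers and 79.1, 63.9 and 54.2 CPM in MYC livers, against 8.56, 7.28 and 9.69 CPM in AEG1 livers and 2.01, 2.68 and 9.14 CPM in WT livers. All carriers but AEG1_MYC replicate 2 lay above all non-carriers, for a log2 fold change of 3.05 ± 0.70 (adjusted p = 0.182). Sult5a1 was 1.69, 0.119 and 2.76 CPM in AEG1_MYC livers and 1.14, 0.585 and 5.37 CPM in MYC livers, against 6.55, 11.1 and 3.54 CPM in AEG1 livers and 13.4, 7.19 and 16.3 CPM in WT livers, with overlap, at -2.29 ± 0.64 (adjusted p = 0.294). The Sult2a genes are close copies of each other, so the counts of Sult2a7 are uncertain.

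**Figure D3:**
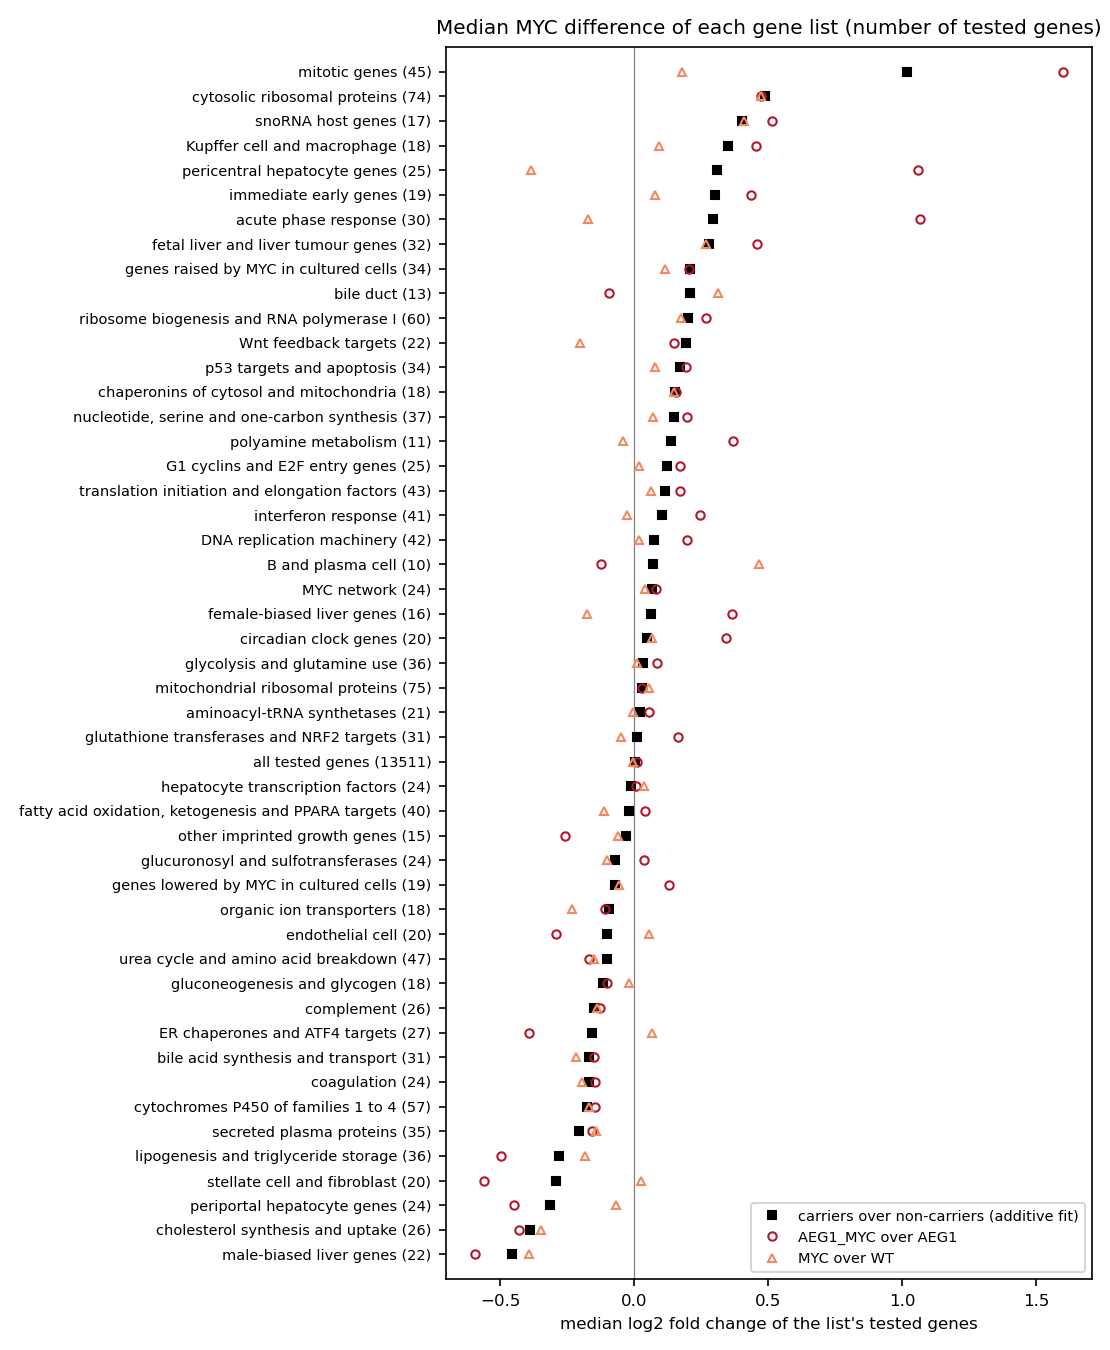
Median log2 fold change of each gene list with at least 10 tested genes, with the number tested in brackets. Squares are carriers over non-carriers, circles AEG1_MYC over AEG1 and triangles MYC over WT; the markers coincide for cytosolic ribosomal proteins (0.49, 0.47 and 0.47) and lie on opposite sides of 0 for pericentral hepatocyte genes (1.06 in AEG1_MYC over AEG1, -0.39 in MYC over WT).

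The additive fit takes the MYC difference to be the same with and without the AEG1 transgene, and this was examined gene by gene. A test of the interaction, which is the difference of AEG1_MYC over AEG1 minus that of MYC over WT, called 3 of 13684 genes (0.0219%), all 3 with a positive value. Without AEG1_MYC replicate 3 it called 32, and it called 1 without any 1 of AEG1_MYC replicate 2, MYC replicate 1, or the AEG1 or WT replicates. AEG1_MYC against AEG1 called 44 genes (0.322%), 41 higher (0.300%) and 3 lower (0.0219%). MYC against WT called 0 in edgeR and limma and 28 in DESeq2, with 475 (3.47%) at an unadjusted p under 0.05 in edgeR and a lowest adjusted p of 0.266. Single libraries also set the count of AEG1_MYC against AEG1. It was 630 without AEG1_MYC replicate 3, 67 without replicate 1 and 25 without replicate 2. It was 4, 5 and 23 without AEG1 replicates 1, 2 and 3, 29 without either of WT replicates 1 and 2, 24 without WT replicate 3 and 21 without MYC replicate 2.

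Both within-background differences had the same sign in 51.6% of the 13511 genes, with a correlation across genes of 0.148. Their 2 comparisons share no library, but genes are not independent replicates. For ribosomal proteins the same sign held in 91.9% of 74, for ribosome biogenesis in 80.0% of 60, for coagulation in 83.3% of 24 and for cholesterol synthesis in 76.9% of 26. For pericentral hepatocyte genes it held in 24.0% of 25.

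**Figure D4:**
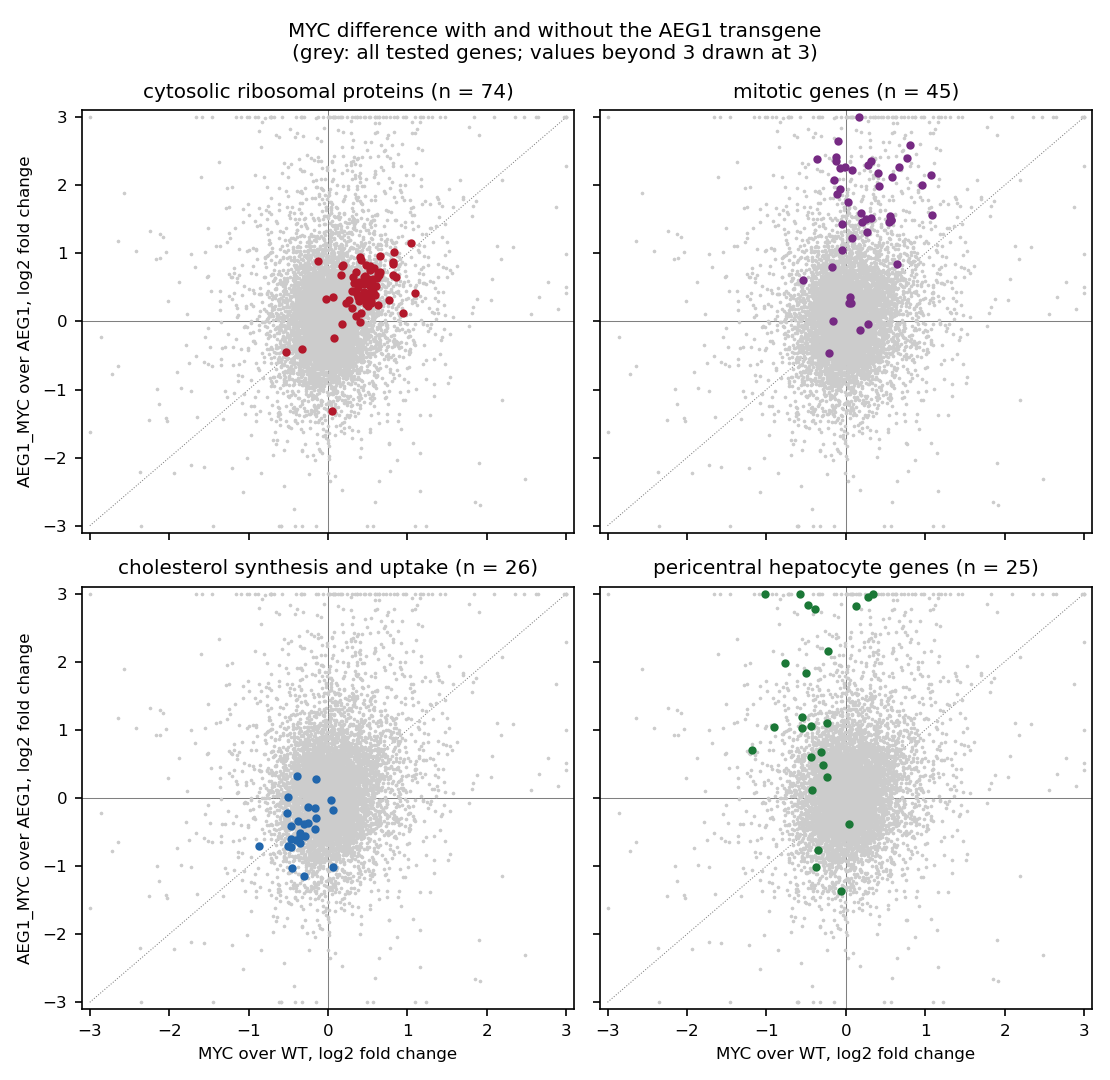
Log2 fold change of MYC over WT (horizontal) against that of AEG1_MYC over AEG1 (vertical) for all tested genes in grey and for 4 lists in colour; the dotted line marks equal values, and values beyond 3 are drawn at 3. Ribosomal proteins gather above 0 on both axes and cholesterol genes below 0 on both, while mitotic and pericentral genes spread upward in the AEG1 background.

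The genes with a called interaction show what the pooled value averages. Nkd1, a feedback inhibitor of Wnt signalling, was 59.9, 84.02 and 66.2 CPM in AEG1_MYC livers, against 5.77, 5.68 and 5.73 CPM in AEG1 livers, and 4.39, 5.26 and 4.32 CPM in MYC livers, against 7.14, 5.86 and 5.55 CPM in WT livers. It rose in AEG1_MYC over AEG1 (3.61 ± 0.16, adjusted p = 2.57e-06) and stood at -0.41 ± 0.15 in MYC over WT, an interaction of 4.02 ± 0.21 (adjusted p = 1.95e-05). Its pooled value of 1.65 ± 0.71 was not called (adjusted p = 0.502).

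Tlr12, a Toll-like receptor for profilin, was 19.6, 25.2 and 24.3 CPM in AEG1_MYC livers, against 7.56, 7.81 and 9.04 CPM in AEG1 livers, and 10.1, 13.6 and 11.4 CPM in MYC livers, against 16.8, 14.4 and 13.8 CPM in WT livers, an interaction of 1.86 ± 0.21 (adjusted p = 0.0221). Gm106 was 10.02, 8.31 and 3.72 CPM in AEG1_MYC livers, against 0.251, 0.243 and 0.352 CPM in AEG1 livers, and 0.242, 0.279 and 0.369 CPM in MYC livers, against 0.213, 0.383 and 0.299 CPM in WT livers, an interaction of 4.65 ± 0.60 (adjusted p = 0.0476). The transcript 9330182L06Rik came next by p, with an interaction of 3.76 ± 0.52 (adjusted p = 0.0521, not called). The pericentral glutamate transporter Slc1a2 followed, at 1187, 2295 and 742 CPM in AEG1_MYC livers, against 119.7, 106 and 149.9 CPM in AEG1 livers, and 87.98, 87.5 and 98.1 CPM in MYC livers, against 302, 114 and 138 CPM in WT livers. Its interaction of 4.51 ± 0.62 was not called (adjusted p = 0.0521), but Slc1a2 rose in AEG1_MYC over AEG1 (3.49 ± 0.46, adjusted p = 0.0153).

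Some lists also had different medians in the backgrounds, and the difference was not tested for any list. Pericentral hepatocyte genes, those of hepatocytes around the central vein, had 19 of 25 members higher in the pooled comparison, but a median of 1.06 in AEG1_MYC over AEG1 and -0.39 in MYC over WT. Without AEG1_MYC replicates 1 and 2 the pooled median of 0.31 became -0.02. The ammonium transporter Rhbg was 101, 239.8 and 72.9 CPM in AEG1_MYC livers, against 14.2, 17.9 and 14.7 CPM in AEG1 livers, and 10.5, 24.1 and 16.1 CPM in MYC livers, against 14.6, 12.1 and 13.4 CPM in WT livers. Rhbg rose in AEG1_MYC over AEG1 (3.14 ± 0.43, adjusted p = 0.0191). Periportal genes had 21 of 24 members lower, at medians of -0.45 and -0.07, and a pooled median of -0.32, or -0.07 without AEG1_MYC replicates 1 and 2.

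Rian and Meg3, noncoding RNAs of the imprinted Dlk1-Dio3 region, were high in each AEG1_MYC liver. Rian was 125, 70.3 and 72.2 CPM in AEG1_MYC livers, against 5.44, 6.02 and 1.76 CPM in AEG1 livers, and 1.899, 1.06 and 1.45 CPM in MYC livers, against 0.488, 1.88 and 2.05 CPM in WT livers. Meg3 was 349.6, 274 and 221 CPM in AEG1_MYC livers, against 24.98, 20.5 and 5.63 CPM in AEG1 livers, and 6.91, 4.01 and 5.87 CPM in MYC livers, against 0.610, 7.69 and 7.99 CPM in WT livers. The pooled log2 fold changes of 2.501 ± 0.87 and 2.15 ± 0.92 were not called (adjusted p = 0.42 and 0.499). In AEG1_MYC over AEG1, Rian rose (4.36 ± 0.56, adjusted p = 0.0142) and Meg3 was not called. Among other imprinted growth genes, Sgce, epsilon-sarcoglycan, was 1.46, 1.48 and 2.38 CPM in AEG1_MYC livers and 2.35, 2.01 and 2.397 CPM in MYC livers, against 3.29, 3.54 and 2.89 CPM in AEG1 livers and 7.66, 2.87 and 4.23 CPM in WT livers. It was lower in every carrier, at -1.001 ± 0.23 (adjusted p = 0.187).

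Further genes stood highest in AEG1_MYC livers. The multidrug exporter Abcc4 was 53.7, 67.8 and 15.5 CPM in AEG1_MYC livers, against 2.90, 2.28 and 4.87 CPM in AEG1 livers, and 2.73, 3.56 and 3.11 CPM in MYC livers, against 2.26, 1.99 and 2.56 CPM in WT livers. Socs3, the feedback inhibitor of cytokine signalling, was 22.6, 28.4 and 10.9 CPM in AEG1_MYC livers, against 5.85, 6.403 and 5.58 CPM in AEG1 livers, and 9.81, 7.52 and 6.67 CPM in MYC livers, against 9.39, 7.27 and 7.43 CPM in WT livers. The glutamine carrier Slc1a5 was 4.797, 17.7 and 5.36 CPM in AEG1_MYC livers and 2.18, 2.395 and 3.504 CPM in MYC livers, against 1.56, 1.698 and 2.29 CPM in AEG1 livers and 0.793, 1.22 and 1.75 CPM in WT livers, with a pooled log2 fold change of 1.74 ± 0.39 (adjusted p = 0.175). Ly6d, a surface protein, was higher in every carrier, 34.3, 7.66 and 5.71 CPM in AEG1_MYC livers and 5.04, 4.18 and 4.32 CPM in MYC livers, against 0.362, 0.534 and 1.43 CPM in AEG1 livers and 1.31, 3.94 and 1.67 CPM in WT livers, at 2.59 ± 0.78 (adjusted p = 0.325).

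No tested marker of other liver cells was called, and the summed levels of their lists overlapped between the groups. Of all tested genes 0.0592% were called, so the absence of calls says little about these cells. The stellate cell and fibroblast list had 13 of 20 members lower, 10 of them at an unadjusted p under 0.05 (4.14% of all genes), with a median of -0.29 and a summed level of 399 to 693 CPM in carriers, against 545 to 940.4 CPM in non-carriers. The median was -0.56 in AEG1_MYC over AEG1 and 0.03 in MYC over WT. The collagen Col1a1 passed the same p in the other direction, at 1.38 ± 0.54, with 2.75 to 31.6 CPM in carriers, against 1.83 to 6.78 CPM in non-carriers and AEG1_MYC replicate 2 the highest. The list member Gdf2, the ligand BMP9, was 4.01 to 17.4 CPM in carriers, against 19.1 to 27.9 CPM in non-carriers, without overlap (-0.79 ± 0.27, adjusted p = 0.42), and the matrix protein Ecm1 stood at -0.93 ± 0.30. Kupffer cell and macrophage markers had 15 of 18 higher, at a median of 0.35, with sums of 355 to 1710 CPM in carriers, against 387 to 1071 CPM in non-carriers; the highest, 1710 CPM, was AEG1_MYC replicate 1, and the median was -0.06 without AEG1_MYC replicates 1 and 2. Endothelial markers had 13 of 20 lower, at -0.10, with -0.29 in AEG1_MYC over AEG1 and 0.05 in MYC over WT, and the 9 tested of 19 T and NK cell markers had 8 lower, with sums over all 19 of 3.56 to 8.67 CPM in carriers, against 5.29 to 16.5 CPM in non-carriers. Bile duct markers had 7 of 13 higher, and B and plasma cell markers 6 of 10.

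Of 13 neutrophil markers 4 were tested and stood higher in carriers. The 12 in the table had sums of 2.34 to 84.95 CPM in carriers, against 2.09 to 9.09 CPM in non-carriers, where AEG1_MYC replicate 1 alone exceeded 9.09 CPM. Acute phase genes had a pooled median of 0.29, with 1.07 in AEG1_MYC over AEG1 and -0.17 in MYC over WT, and -0.10 without AEG1_MYC replicates 1 and 2. Male-biased liver genes had 20 of 22 members lower, at a median of -0.46, or -0.26 without those libraries, and female-biased genes 9 of 16 higher; the labels give no sex. Circadian clock genes had 12 of 20 higher, at 0.05, and the time of collection is not given. The part of these cells, of sex and of time in the differences above was not tested.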

How the data were processed

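The deposited values were whole-number read counts per gene, 1 table per liver. Per the submitters' processing notes, CASAVA 1.8.2, TopHat2 2.0.7 and HTSeq were used by the authors, with the mm9 mouse genome. The annotation, the strand setting and the HTSeq version are not given in the sources used here, and per the labels' protocols the library kit was TruSeq RNA. The 5 HTSeq summary rows were dropped, which left 22609 genes, 4439 of them at 0 in every library. Of the reads in genes, in no feature or ambiguous, those in no feature were 12.7% to 15.5% in carriers and 11.5% to 13.4% in non-carriers. Ambiguous reads were 0.634% to 0.746% of the same total over all libraries. This total leaves out alignments to several places.

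Counts were tested with edgeR 4.0.16 in R 4.3.3 (quasi-likelihood F test, two-sided, robust dispersion, TMM scaling, low genes removed with filterByExpr). The additive fit had MYC and AEG1 status as terms and 9 residual degrees of freedom, and p-values were adjusted over 13511 genes. A second fit with 1 coefficient per genotype and 13684 genes gave the interaction and both within-background differences. The median standard error of a MYC log2 fold change was 0.15, against 0.208 for each within-background difference and 0.294 for the interaction. The fits were run on simulated counts with the same MYC difference in both backgrounds and no library standing apart. That run therefore does not cover the interaction or the outlying libraries of these data.

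The gene lists, the comparison and its members were chosen with earlier results of these data known. The 229 genes open to naming were Myc, Mtdh and the MYC network, called genes up to 15 a direction by size, the 15 with the smallest p, up to 4 of each list by smallest p and the 5 with the smallest interaction p. Other genes named in the text (the further ribosomal proteins, Alb and genes with all carriers on 1 side) were chosen after their values were seen. Alternatives were DESeq2 1.42.0, limma 3.58.1, sva 3.50.0, other scalings, filters and designs, and each library left out. Scaling by library totals was added after seeing the data. Nothing says whether the 3 mice of a genotype were littermates, and p-values set each difference against the spread between these livers.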

Additional observations from a re-analysis of the deposited data

Results flagged for a closer look

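Each group of 6 libraries was examined for a single library far from the other 5 by Dixon's gap over range (95% critical value 0.625), over the reported genes and list sums. Of 258 groups, 25 (9.69%) held such a library. The critical value stands for about 1 in 20 in a single group of like samples. These groups each pool 2 genotypes and share the same libraries, so the share cannot be set against that rate. AEG1_MYC replicate 2 was that library in 15 and AEG1_MYC replicate 1 in 4.

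Among carriers, AEG1_MYC replicate 2 was far above the other 5 in Npm1, at 66.4 CPM against 43.8 to 48.6 CPM, and in the glycolytic enzyme Pfkl, at 90.4 CPM against 52.6 to 63.0 CPM. The mitotic genes Kif22 and Pbk were at 2.88 and 3.59 CPM there, against 0.898 to 1.36 CPM and 0.483 to 0.963 CPM in the other carriers. The snoRNA host sum was 1084 CPM, against 573 to 641 CPM.

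The same liver was far below the other carriers in several hepatocyte products, while Apoa1, at 5711 CPM against 3240 to 4950 CPM, and Cyp3a11, at 4393 CPM against 993 to 1983 CPM, were highest there among carriers. Serpina1a was at 20.4 CPM against 350 to 461 CPM. Acss2 was at 138 CPM against 276 to 353 CPM, Itih1 at 437 CPM against 722 to 812 CPM and Serpinc1 at 1513 CPM against 1960 to 2119 CPM. Bhmt2 was at 199 CPM against 260 to 295 CPM, and Sult2a7 at 3.18 CPM against 27.4 to 94.2 CPM. The secreted protein sum was 99002 CPM against 141791 to 163094 CPM, and the periportal sum 27924 CPM against 59272 to 86448 CPM. The stellate cell markers Hand2 and Gdf2 were at 2.40 and 4.01 CPM, against 3.93 to 4.35 CPM and 10.99 to 17.4 CPM. The collagens Col1a1, Col1a2 and Col3a1 of the same marker list were highest there among carriers, at 31.6, 34.5 and 71.8 CPM, against 2.75 to 8.22 CPM, 6.09 to 14.5 CPM and 17.9 to 44.0 CPM.

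AEG1_MYC replicate 1 was far above the other carriers in the neutrophil genes S100a8, at 23.4 CPM against 0.211 to 0.794 CPM, and S100a9, at 24.1 CPM against 0.289 to 1.25 CPM. The neutrophil sum was 85.0 CPM against 2.34 to 6.99 CPM, and Ly6d was 34.3 CPM against 4.18 to 7.66 CPM.

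Among non-carriers, AEG1 replicate 3 stood apart in the initiation factor subunit Eif3h, at 73.2 CPM against 66.8 to 68.8 CPM, and in Rpl23a, at 4.65 CPM against 2.41 to 3.01 CPM. WT replicate 1 was high in Slc1a2, at 302 CPM against 106 to 150 CPM, in Nkd1, at 7.14 CPM against 5.55 to 5.86 CPM, and in Rps2, at 57.0 CPM against 30.3 to 37.6 CPM. It was low in Prr18, at 0.213 CPM against 0.497 to 0.776 CPM.

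The MYC difference itself differed between the backgrounds in 3 genes by the interaction test, with log2 values of 4.65 in Gm106, 4.02 in Nkd1 and 1.86 in Tlr12 (edgeR, adjusted p = 0.0476, 1.95e-05 and 0.0221).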

How the results depend on the processing

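Myc kept its call under every alternative run, with a log2 fold change of 3.397 to 4.278, and no called result changed sign. The 8 calls of the pooled comparison became 3 with upper-quartile scaling and 3 with library totals, 34 with limma, 197 with DESeq2, 19 without the AEG1 covariate and 15 for the mean of both within-background differences. Leaving out single libraries gave 1 to 18, and 1 surrogate variable gave 7, of which 3 were shared. Without AEG1_MYC replicates 1 and 2 there were 9, of which 3 were shared. The 3 interaction calls became 5 without the robust step and 5 with limma, 152 with DESeq2, and 1 with library totals or without AEG1_MYC replicates 1 and 2, and ran over 1 to 32 with single libraries left out. The 44 calls of AEG1_MYC against AEG1 became 18 with the filter that asks for 1 CPM in 6 or more libraries, 700 with DESeq2, 2 with the 6 compared libraries alone and 7 without AEG1_MYC replicates 1 and 2, and ran over 4 to 630 with single libraries left out. MYC against WT had 0 calls in edgeR and limma, 28 in DESeq2 and 0 to 1 with single libraries left out. The cause of these moves was not tested. Library totals alone put the medians of 9 of 53 lists on the other side of 0, and 0 once the shift of all genes, 0.13, was taken off. That shift is nearly the same for every gene, so this is no test of the lists. With 1 surrogate variable several list medians changed sign. The periportal median went from -0.32 to 0.29, the pericentral from 0.31 to -0.14 and the complement median from -0.15 to 0.06. Those of cytosolic ribosomal proteins and cholesterol synthesis stayed at 0.39 and -0.40. No paired analysis was possible because the labels give the genotypes no shared replicate numbers, those used here only name a mouse in order of deposit, and litter and batch are not given. With 21931197 to 40552316 reads in genes per liver, counting error is small for most genes named, but some rest on few reads. These include Dctd and Hrk in non-carriers, and Gm106, at 0.213 to 0.383 CPM in every library outside AEG1_MYC.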
